A study of Mus musculus with 28 samples.

Results

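The genes described here build cholesterol and fatty acids or set the rate at which cells do so. The list holds 33 genes, named as a group for this description, and all 33 were among the 13519 genes counted in colon organoids. Of these, 17 encode enzymes of cholesterol synthesis, 6 encode regulators or a carrier of sterols, and 10 encode enzymes of fatty acid synthesis and remodelling. Cholesterol is assembled from acetyl-CoA through mevalonate, isoprenoid diphosphates and squalene to lanosterol, which is then trimmed to cholesterol. Fatty acids are built from the same acetyl-CoA, made from citrate or acetate, and are then elongated and desaturated. Both routes are transcribed under the SREBP factors, membrane proteins of the endoplasmic reticulum that are carried to the Golgi apparatus by SCAP when sterols are scarce and held back by INSIG proteins when sterols are plentiful. In the intestinal epithelium these genes supply membranes to dividing cells and lipids for storage and secretion.

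The organoids were grown from the colon of C57BL/6N mice that carried *Apc* flox/flox and the *Villin::CreERT2* transgene, in which the promoter of an epithelial gene drives a Cre that 4-hydroxytamoxifen (4-HT) activates. AC organoids had no further allele, PAC organoids also carried *Trp53* LSL-R172H/+, BAC organoids carried *Braf* floxV600E/+, and BPAC organoids carried both. Each culture was exposed for 24 hours to 3.5 µM 4-HT or to ethanol (EtOH), its vehicle, and RNA was taken 3 days later; the animals' ages are not given in the sources used here. The 28 libraries came from 14 cultures of 7 donor mice, 1 donor for AC and 2, called a and b, for each other genotype, with 2 duplicates (1 and 2) per donor, called cultures here. A supplementary legend of the study describes the organoids of each donor as taken from separate passages, so the p-values measure the spread between passages as well as between donors. All organoids carried floxed *Apc* and the transgene, so the effects of the 4-HT exposure itself and of recombination cannot be told apart. The AC genotype rests on a single donor.

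Each library held between 20577276 and 40068718 counts on genes. Levels are given as CPM, the counts of a gene scaled to a common library total after TMM normalization, and a change is the log2 fold change of 4-HT against EtOH from edgeR's quasi-likelihood test, with its standard error (SE). A gene passed when its p-value, with Benjamini-Hochberg adjustment over the 13519 genes tested, was under 0.01. The labelled tissue held in its markers, since all 12 colon epithelial genes listed were counted, with summed levels from 20031 to 34646 CPM over both treatments. Of 15 mesenchymal and immune genes listed, 5 were counted, with summed levels from 8.18 to 21.2 CPM.

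Libraries that stood apart bear on the results below. The 4-HT libraries of PAC cultures a1 and b1 both held *Xist* and Y-linked transcripts above 10 CPM, as no other library did, and were the most alike of all pairs (Pearson's r = 0.997 across genes, which are not independent replicates). Which donor each held was not tested, and the PAC counts of each gene list, with the values of the genes that passed in PAC, are also given without the duplicate 1 cultures. Among the 14 EtOH libraries, that of BPAC culture a2 had the highest level for 14 of the 33 genes, and that of PAC culture b1 for 11.

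Markers of cell state moved together with the comparison in every genotype. With 4-HT, 7 of the 14 absorptive colonocyte markers fell in AC, 9 of 14 in PAC, 13 of 14 in BAC and all 14 in BPAC, and their summed level went from 25401 to 35213 CPM with EtOH to between 5753 and 17113 CPM with 4-HT. Of 12 proliferation markers, 6 rose in AC and 10 in PAC, and 11 rose in BAC and 12 in BPAC. In the fit with the culture as a block, described below, 9, 12, 14 and 14 of the absorptive markers fell in AC, PAC, BAC and BPAC. Of the proliferation markers, 9 then rose in AC and 12 in each other genotype. Of the epithelial genes, 4, 6, 7 and 9 fell, and 1 rose in each of PAC, BAC and BPAC. The part of these shifts in the results below was not tested. In bulk RNA, fewer cells of a type and less RNA per cell cannot be told apart.

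With EtOH, before recombination, the most abundant transcript of the group per length of exon was *Scd2*, a stearoyl-CoA desaturase, with a median over the 14 EtOH libraries of 317.8 CPM per kb. It was followed by *Hmgcs1*, the HMG-CoA synthase that opens the mevalonate route, at 148.5 CPM per kb, the squalene epoxidase gene *Sqle* at 82.4 CPM per kb and the sterol methyl oxidase gene *Msmo1* at 72.6 CPM per kb. The lowest were *Fdps*, the farnesyl diphosphate synthase gene, at 2.70 CPM per kb, and *Acaca*, which encodes the acetyl-CoA carboxylase of fatty acid synthesis, at 1.82 CPM per kb. These 2 genes also shared 26.2% and 30.4% of their 50-base stretches with other annotated genes, so that reads could have been split or dropped when they were counted, and their levels are uncertain. The neighbours in this order from *Sqle* to *Msmo1* and on to *Insig1*, at 69.4 CPM per kb, had ranges over the EtOH libraries that overlapped, whereas those of *Scd2*, *Hmgcs1* and *Sqle* did not overlap.

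The enzymes of the cholesterol route and those of the fatty acid route changed by different amounts with 4-HT. In each of the 14 cultures, the median change of the 10 fatty acid genes lay above that of the 17 cholesterol genes, by between 0.12 and 0.81 log2 units. The cholesterol median was below the median of all genes in each culture: -0.36 and -0.20 in AC, -0.45, -0.16, -0.76 and -0.47 in PAC (cultures a1, a2, b1 and b2), -0.11, -0.16, -0.13 and -0.11 in BAC, and -0.24, -0.28, -0.13 and -0.21 in BPAC. The median change of all genes lay between -0.04 and 0.01 in these cultures. Averaged over cultures, AC had a cholesterol median of -0.28 ± 0.12 (SD, n = 2), PAC of -0.46 ± 0.25 (n = 4), BAC of -0.13 ± 0.02 (n = 4) and BPAC of -0.22 ± 0.06 (n = 4). PAC was thus the lowest and also the most variable genotype, and its range of -0.76 to -0.16 overlapped those of AC, BAC and BPAC. 

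**Figure D1:**
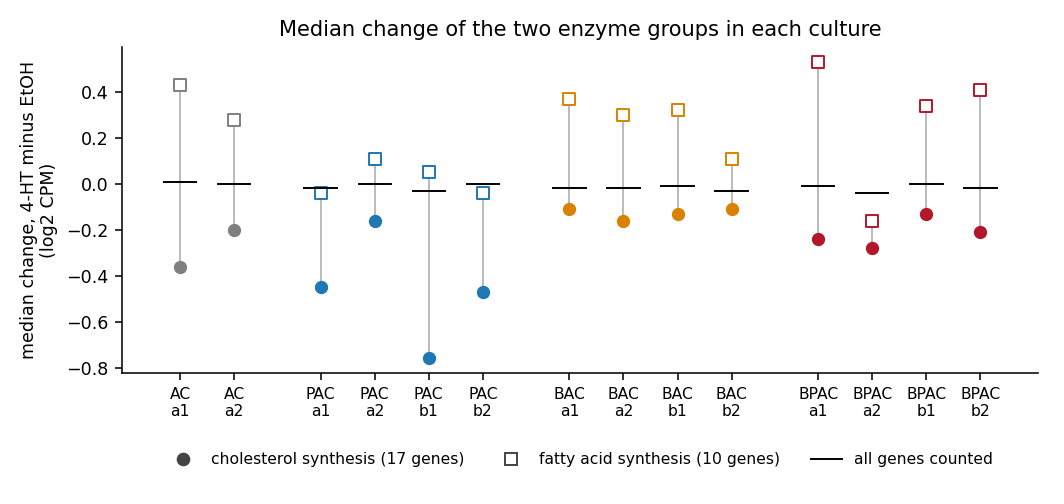
Median 4-HT minus EtOH difference in log2 CPM (vertical axis) of the 17 cholesterol genes (filled circles), the 10 fatty acid genes (open squares) and all 13519 genes (black bars) in each of the 14 cultures (horizontal axis, grouped by genotype). The square lies above the circle in all 14 cultures, by as little as 0.12 in BPAC a2 and as much as 0.81 in PAC b1.

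The fatty acid medians were 0.43 and 0.28 for AC, -0.04, 0.11, 0.05 and -0.04 in PAC, 0.37, 0.30, 0.32 and 0.11 in BAC, and 0.53, -0.16, 0.34 and 0.41 in BPAC. Their means were 0.36 ± 0.10 in AC (SD, n = 2), 0.02 ± 0.08 in PAC (n = 4), 0.28 ± 0.12 in BAC (n = 4) and 0.28 ± 0.31 in BPAC (n = 4). PAC again lay lowest, and the wide spread of BPAC came from culture a2, the one whose EtOH library stood high. The median is a description of a mixed group, since *Acss2* and *Elovl6* had log2 fold changes under 0 in each genotype, and no test was made of the medians.

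Over the single genes, 12 of the 33 were lower with 4-HT in all 14 cultures, which is 36.4%, against 19.5% of all genes counted. They were 8 of the 17 cholesterol genes (*Hmgcs1*, *Mvk*, *Fdft1*, *Sqle*, *Msmo1*, *Hsd17b7*, *Ebp* and *Sc5d*), 3 of the 6 regulators (*Insig1*, *Insig2* and *Stard4*) and *Acss2*. Only *Acly* and *Elovl5*, 6.06% of the 33, were higher in all 14 cultures, against 18.5% of all genes. These counts depended on the scaling. With library size alone, 4 of the 33 (*Hmgcs1*, *Sc5d*, *Insig1* and *Insig2*, 12.1%) were lower in all 14 cultures, against 9.71% of all genes, and 10 (30.3%) were higher, against 32.3%. A total of 23 of the 33 genes (69.7%) passed in at least 1 genotype, against 52.0% of all genes, and 10 in none, and no gene rose in one genotype and fell in another.

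**Figure D2:**
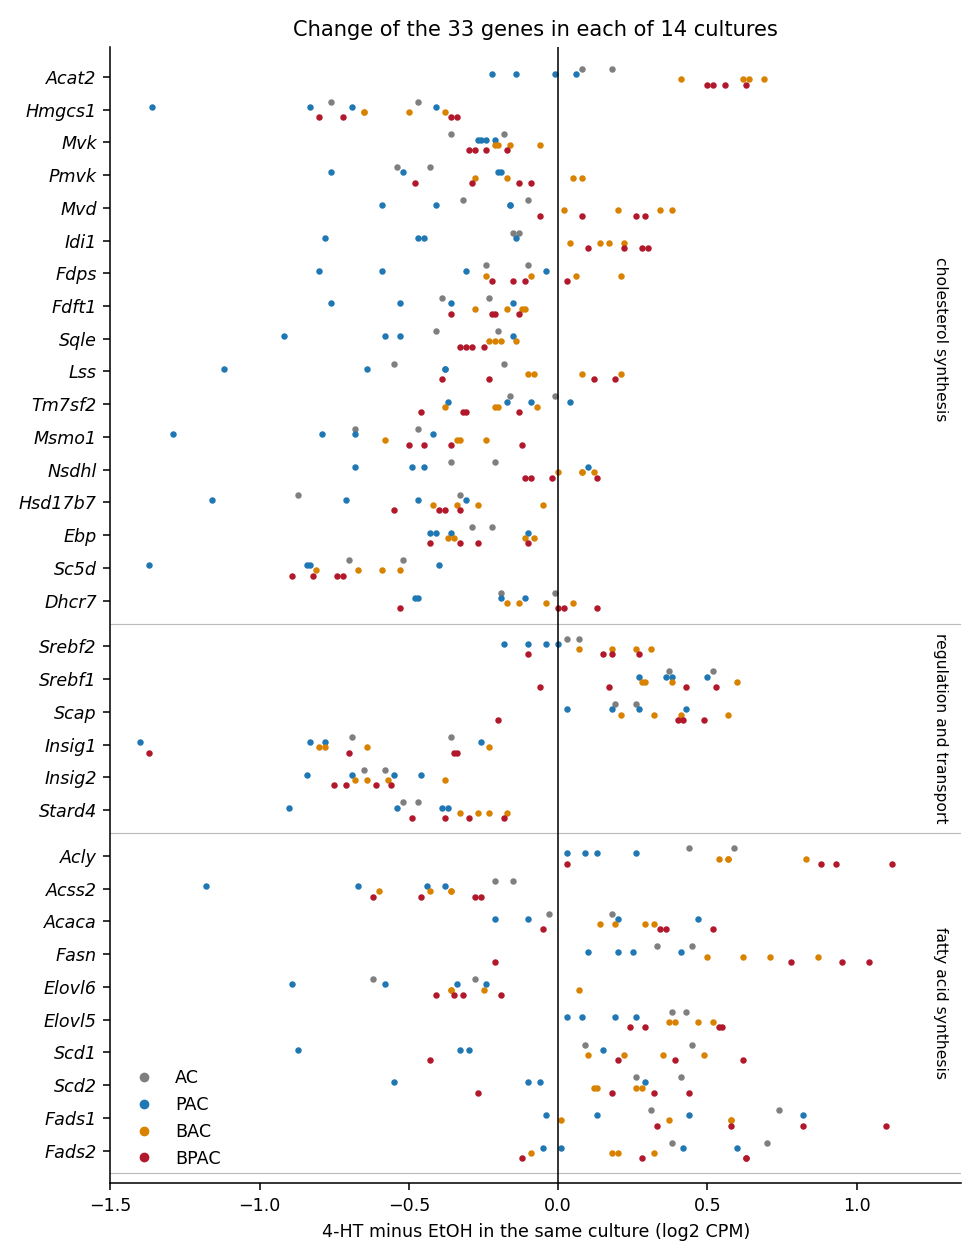
Difference between 4-HT and EtOH in the same culture in log2 CPM (horizontal axis) for the 33 genes (rows), with 1 point per culture and a colour per genotype (AC 2 cultures, PAC, BAC and BPAC 4 each). *Sc5d* and *Insig2* lie left of 0 in every culture, whereas the BAC and BPAC points of *Acat2* lie between 0.41 and 0.69, apart from those of AC and PAC.

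Among the 17 cholesterol enzymes, none passed in AC, where 3.00% of all genes rose and 4.25% fell. In PAC, 12 fell and none rose, against 12.2% of all genes that fell and 11.2% that rose. In BAC, 3 fell and 1 rose, against 21.5% and 20.3% of all genes. In BPAC, 5 fell and 1 rose, against 23.0% and 22.0%. The share that fell in BAC and BPAC was thus near that of all genes, and in PAC it was well above. Over the 17 genes the log2 fold changes had medians of -0.28 (AC), -0.44 (PAC), -0.16 (BAC) and -0.25 (BPAC), beside 0.01, -0.03, -0.04 and -0.04 over all genes. With library size alone in place of TMM, these medians of the fitted fold changes were -0.06, -0.21, 0.00 and -0.03, beside 0.23, 0.20, 0.13 and 0.18 over all genes. The counts changed as well. None of the 17 passed in AC, 4 fell in PAC (*Hmgcs1*, *Msmo1*, *Hsd17b7* and *Sc5d*), *Acat2* rose and *Sc5d* fell in BAC, and *Acat2* and *Idi1* rose and *Sc5d* fell in BPAC. With this scaling, the shares of all genes that rose and fell were 11.2% and 2.23% (AC), 25.1% and 5.45% (PAC), 28.7% and 15.3% (BAC), and 32.0% and 15.1% (BPAC).

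The PAC count rested on the duplicate 1 cultures. Without them, with 2 cultures left, none of the 17 passed and none of the 33, although all 17 log2 fold changes remained under 0, with a median of -0.31 beside 0.00 over all genes, of which 22 rose and 26 fell. Leaving out culture b1 alone reduced the number of the 33 that fell in PAC from 16 to 7, leaving out donor b reduced it to 0, and leaving out donor a gave 13. The shares of all genes in these fits were not set beside these counts. In the fit without the duplicate 1 cultures, *Sc5d* was nearest to the threshold among the 17 (log2 fold change -0.63, SE 0.16, edgeR adjusted p = 0.0316). Of the other cholesterol genes that passed with all PAC cultures, *Hmgcs1* (-0.56), *Msmo1* (-0.55) and *Lss* (-0.51) kept values under -0.5 without them. *Hsd17b7*, *Sqle*, *Fdft1* and *Idi1* were at -0.40, -0.38, -0.35 and -0.31, and *Ebp*, *Nsdhl*, *Fdps* and *Dhcr7* at -0.27, -0.21, -0.18 and -0.15. The fit with the culture as a block, which compares the EtOH and the 4-HT library of the same culture, counted 14 of the 17 as lower in PAC, 8 in BPAC, 3 in BAC and 2 in AC, against 18.4%, 27.7%, 26.7% and 8.99% of all genes. The block takes the libraries of a culture to be of 1 donor, and its PAC calls rest on this. It was not tested for the 4-HT libraries of PAC cultures a1 and b1 described above. The fits without PAC donor a or b rest on the donor labels of these libraries too.

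Since the duplicates share a donor, their counts were also summed per donor and treatment before the test. This leaves AC with 1 sample per treatment, assumed to vary like the other groups. The PAC sums take each library to hold the donor of its label, which was not tested for cultures a1 and b1, as described above. Whether a PAC call was kept, gained or lost on the donor sums therefore rests on these labels. Of the 33 genes, the calls of *Idi1*, *Fdps*, *Fdft1*, *Lss* and *Acss2* in PAC, of *Hmgcs1*, *Ebp* and *Acly* in BAC, of *Hmgcs1*, *Tm7sf2* and *Acly* in BPAC and of *Insig2* in AC were lost on these donor sums. The block brought 19 further calls among the 33 genes, the *Braf* comparison below included, and 16 of these did not pass on the donor sums. The other 3 were *Srebf1* in PAC and BAC and *Stard4* in AC.

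**Figure D3:**
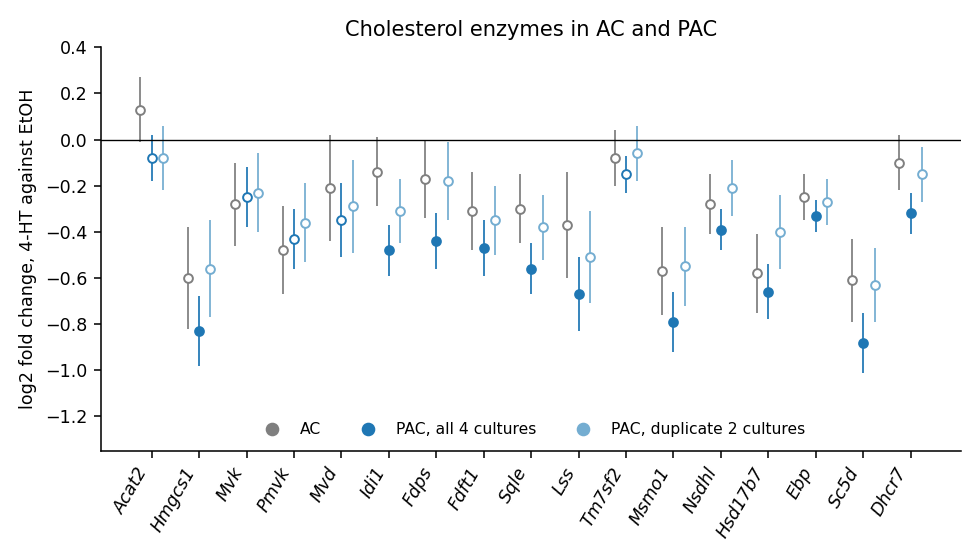
Log2 fold change of 4-HT against EtOH (vertical axis, bars show the SE) of the 17 cholesterol genes in AC (2 cultures), in PAC (4 cultures) and in PAC without its duplicate 1 cultures (2 cultures); filled points passed an adjusted p of 0.01. The points without the duplicate 1 cultures are all open and lie between -0.63 and -0.06.

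The first enzymes lead from acetyl-CoA to mevalonate and its phosphates. *Hmgcs1* (ENSMUSG00000093930, GRCm38 chromosome 13 from 119690379 to 119708260, protein coding) had 566.5 and 601.5 CPM with EtOH in AC cultures a1 and a2, and 334.7 and 434.0 CPM with 4-HT. In PAC it had 621.7, 557.5, 849.2 and 696.7 CPM with EtOH in cultures a1, a2, b1 and b2, and 350.6, 420.0, 329.9 and 431.3 CPM with 4-HT. In BAC the levels were 759.2, 731.1, 755.9 and 667.5 CPM with EtOH and 483.4, 516.2, 481.2 and 513.1 CPM with 4-HT. Every 4-HT level was under every EtOH level in each of these genotypes. In BPAC the 2 treatments overlapped, with 745.4, 1012, 554.2 and 654.3 CPM with EtOH and 427.2, 613.1, 431.6 and 517.4 CPM with 4-HT, the highest value of each being culture a2. *Hmgcs1* fell in PAC (log2 fold change -0.83, SE 0.15, edgeR adjusted p = 0.000224), BAC (-0.55, SE 0.15, adjusted p = 0.00407) and BPAC (-0.58, SE 0.15, adjusted p = 0.00249), and in AC it was at -0.60 (SE 0.22, adjusted p = 0.0563).

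*Acat2*, the cytosolic thiolase that joins 2 acetyl-CoA units at the head of the route, was the one cholesterol gene that rose. It had 115.0 and 108.6 CPM with EtOH in AC and 121.8 and 123.2 CPM with 4-HT, and in PAC 126.6, 109.1, 153.9 and 134.0 CPM with EtOH and 131.9, 108.6, 132.2 and 122.0 CPM with 4-HT. In BAC it had 137.5, 115.6, 140.7 and 131.1 CPM with EtOH and 221.4, 177.9, 220.1 and 173.7 CPM with 4-HT. In BPAC it had 138.9, 144.5, 132.7 and 122.8 CPM with EtOH and 205.2, 204.4, 205.8 and 176.2 CPM with 4-HT. The treatments overlapped in PAC and were apart in BAC and BPAC, where *Acat2* rose by 1.51-fold and 1.47-fold (log2 fold change 0.60, SE 0.10, edgeR adjusted p = 2.76e-05, and 0.55, SE 0.10, adjusted p = 5.67e-05). In AC and PAC the log2 fold changes were 0.13 (SE 0.14) and -0.08 (SE 0.10), and neither passed. *Acat2* (ENSMUSG00000023832, chromosome 17 from 12942890 to 12960747) shares 39.1% of its 50-base stretches with the neighbouring gene *Acat3*, which was not analysed here, so its counts may be split between the 2 genes.

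The mevalonate kinase gene *Mvk* and the phosphomevalonate kinase gene *Pmvk* did not pass in any genotype, with log2 fold changes from -0.28 to -0.16 and from -0.48 to -0.09. With the culture as a block, *Mvk* passed as lower in PAC (-0.25, adjusted p = 0.0019) and BPAC (-0.25, adjusted p = 0.000949), and *Pmvk* in PAC (-0.42, adjusted p = 0.00178). None of these passed on the donor sums (adjusted p = 0.0129 and 0.021 for *Mvk* and 0.0224 for *Pmvk*). *Mvd*, the mevalonate diphosphate decarboxylase gene, was at -0.21 and -0.35 in AC and PAC and at 0.22 and 0.13 in BAC and BPAC, none of which passed, and with the block it passed as lower in PAC (-0.33, adjusted p = 0.00472), but not on the donor sums (adjusted p = 0.0718).

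The isoprenoid steps follow. *Idi1*, the isopentenyl diphosphate isomerase gene, had 74.1, 59.6, 95.2 and 84.8 CPM with EtOH in PAC cultures a1, a2, b1 and b2 and 53.3, 53.9, 55.5 and 62.2 CPM with 4-HT. It fell in PAC (log2 fold change -0.48, SE 0.11, edgeR adjusted p = 0.0011). In AC it had 60.8 and 63.1 CPM with EtOH and 54.7 and 57.7 CPM with 4-HT (log2 fold change -0.14, SE 0.15), in BAC 85.0, 83.7, 89.7 and 89.4 CPM and 95.4, 92.2, 92.1 and 104.2 CPM (0.14, SE 0.10), and in BPAC 89.6, 84.2, 70.9 and 74.1 CPM and 96.4, 103.6, 82.6 and 90.0 CPM (0.23, SE 0.10), none of which passed. Within each culture *Idi1* was higher with 4-HT in all 8 BAC and BPAC cultures and lower in all 6 AC and PAC cultures. *Fdps* fell in PAC alone (-0.44, SE 0.12, adjusted p = 0.00746), with changes between -0.17 and -0.01 elsewhere. *Fdft1* (squalene synthase, -0.47, adjusted p = 0.00373) and *Sqle* (-0.56, adjusted p = 0.0004) also fell in PAC. *Fdft1* shares 26.5% of its 50-base stretches with other annotated genes, mainly *Ctsb*, so its counts are uncertain too. *Sqle* passed in BPAC with the culture as a block (-0.29, adjusted p = 0.00817) but not on the donor sums (adjusted p = 0.0783).

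The later enzymes convert squalene epoxide to cholesterol. *Lss*, the lanosterol synthase gene, fell in PAC (-0.67, SE 0.16, adjusted p = 0.00244) and was at 0.02 in BAC and -0.11 in BPAC. *Msmo1* fell in PAC (-0.79, SE 0.13, adjusted p = 8.74e-05), and with the block it also passed as lower in AC (-0.57, adjusted p = 0.00959), BAC (-0.37, adjusted p = 0.00638) and BPAC (-0.36, adjusted p = 0.00775). On the donor sums these 3 calls were lost (adjusted p = 0.0448, 0.0411 and 0.0301). The sterol dehydrogenase gene *Nsdhl* fell in PAC (-0.39, SE 0.09) and was at 0.07 in BAC and -0.02 in BPAC, whereas *Hsd17b7*, whose enzyme reduces the 3-ketosterol, fell in PAC (-0.66, SE 0.12) and BPAC (-0.41, SE 0.12). *Tm7sf2*, a sterol reductase gene, fell in BPAC (-0.31, SE 0.08, adjusted p = 0.00343), and *Dhcr7*, whose enzyme completes the route through 7-dehydrocholesterol, fell in PAC (-0.32, SE 0.09, adjusted p = 0.00639), a call that was lost with the block (adjusted p = 0.0117) and held on the donor sums (-0.34, adjusted p = 0.00763). The BPAC calls of *Hsd17b7* and *Tm7sf2* were each lost in 5 fits that left out a BPAC culture or donor and held in 1.

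*Ebp*, the sterol isomerase gene, and *Sc5d*, the lathosterol oxidase gene, fell in PAC, BAC and BPAC. *Ebp* changed by -0.33, -0.23 and -0.28 (SE 0.07 each), and its BAC call was lost with the block (adjusted p = 0.013). *Sc5d* (ENSMUSG00000032018, chromosome 9 from 42251595 to 42264256) had 155.8 and 150.7 CPM with EtOH in AC and 96.2 and 104.8 CPM with 4-HT, and in PAC 166.8, 144.1, 229.5 and 199.0 CPM with EtOH and 93.0, 109.2, 88.5 and 111.9 CPM with 4-HT. It had 170.7, 186.7, 180.3 and 173.0 CPM with EtOH in BAC against 113.5, 106.7, 113.0 and 119.5 CPM with 4-HT, and 200.6, 241.1, 167.9 and 192.3 CPM in BPAC against 108.5, 144.7, 102.0 and 109.2 CPM. The treatments did not overlap in any genotype. The log2 fold changes were -0.88 in PAC (SE 0.13, edgeR adjusted p = 2.16e-05), -0.65 in BAC (SE 0.13, adjusted p = 0.000127), -0.79 in BPAC (SE 0.13, adjusted p = 1.05e-05) and -0.61 in AC (SE 0.18, adjusted p = 0.0205), where it passed with the block (adjusted p = 0.00594) and not on the donor sums (adjusted p = 0.0567).

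**Figure D4:**
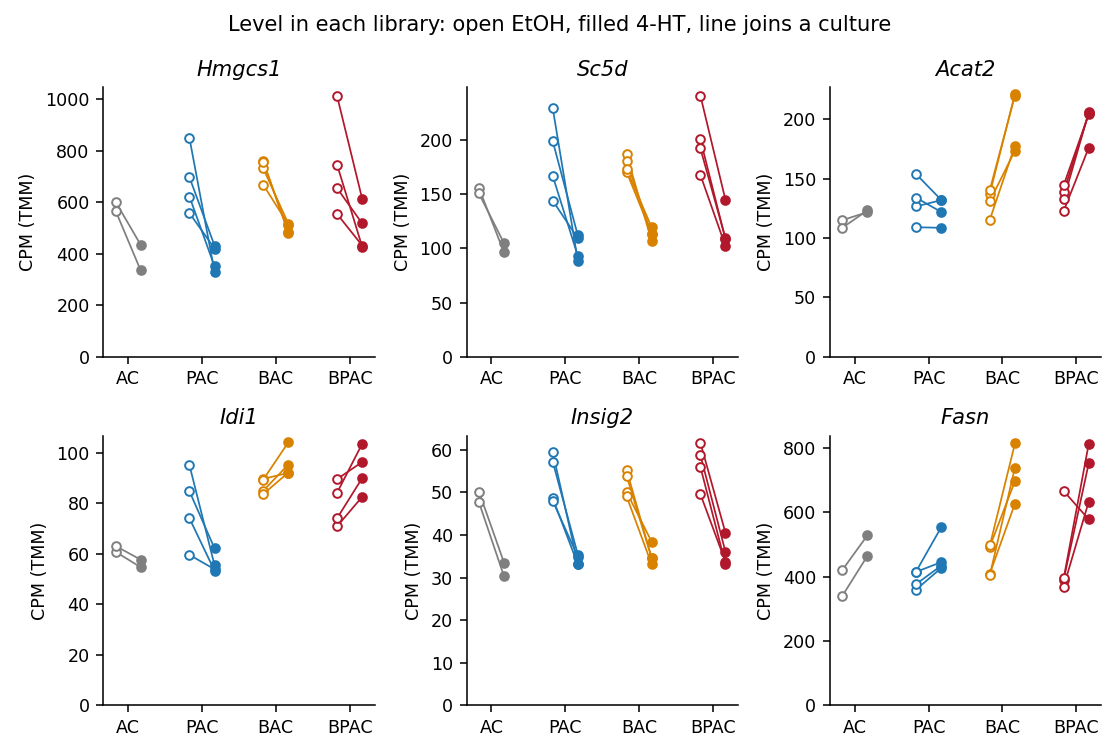
Level in CPM (vertical axis, from 0) of *Hmgcs1*, *Sc5d*, *Acat2*, *Idi1*, *Insig2* and *Fasn* in each of the 28 libraries by genotype; open points are EtOH, filled points 4-HT, and a line joins the 2 libraries of a culture. The lines of *Sc5d* and *Insig2* run down in all 14 cultures, and the single falling line of *Fasn* in BPAC is culture a2, at 666.0 CPM with EtOH and 577.6 CPM with 4-HT.

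The sequence before the transcription start is shown for 10 genes. RefSeq windows of GRCm38.p6, from 250 bases before to 50 after the start, were held for 26 of the 33 genes. Among these 26, *Sc5d* (chr9:42264331-42264480, minus strand) and *Acat2* (chr17:12960756-12960905, minus strand) had the lowest and highest log2 fold change in any genotype of the cholesterol genes, *Insig1* (chr5:28071232-28071362, plus strand) and *Srebf1* (chr11:60222612-60222761, minus strand) of the regulators, and *Acss2* (chr2:155517863-155517947, plus strand) and *Acly* (chr11:100528031-100528180, minus strand) of the fatty acid genes. *Insig2* (chr1:121332620-121332769, minus strand) is set beside its paralog, as are the elongase genes *Elovl5* (chr9:77917185-77917334, plus strand) and *Elovl6* (chr3:129532206-129532354, plus strand), since the calls differ within each pair. *Hmgcs1* (chr13:119690171-119690320, plus strand) was added after its match was seen. The bases run from 180 to 31 before the RefSeq start nearest to that of the annotated gene, and end earlier, at the annotated gene, for *Acss2*, *Insig1* and *Elovl6*. The RefSeq starts of these 3 genes lie 95, 49 and 31 bases inside the gene as annotated here, those of *Acat2* and *Elovl5* 22 and 1 inside, and those of *Sc5d* and *Hmgcs1* 44 and 28 bases upstream of it. Each reads 5′ to 3′ along the gene, and capitals mark a sterol response element (TCACNCCAC), a CCAAT box (ATTGG or its complement) or an E-box (CACGTG), each searched on both strands, with no overlaps between them.
Hmgcs1: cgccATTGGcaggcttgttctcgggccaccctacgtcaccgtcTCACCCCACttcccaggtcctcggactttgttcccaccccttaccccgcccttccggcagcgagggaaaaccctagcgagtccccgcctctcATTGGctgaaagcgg
Sc5d: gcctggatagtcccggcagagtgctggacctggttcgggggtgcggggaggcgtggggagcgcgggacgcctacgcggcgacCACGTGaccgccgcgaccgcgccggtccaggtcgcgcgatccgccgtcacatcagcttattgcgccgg
Acat2: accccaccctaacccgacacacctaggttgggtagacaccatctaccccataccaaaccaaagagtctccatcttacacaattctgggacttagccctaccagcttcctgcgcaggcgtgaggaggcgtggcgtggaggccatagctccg
Insig1: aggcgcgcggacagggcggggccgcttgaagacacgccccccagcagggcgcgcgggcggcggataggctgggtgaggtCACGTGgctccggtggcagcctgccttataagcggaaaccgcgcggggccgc
Insig2: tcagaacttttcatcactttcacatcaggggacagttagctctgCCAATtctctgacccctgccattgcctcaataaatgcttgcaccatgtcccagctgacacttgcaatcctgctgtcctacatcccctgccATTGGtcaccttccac
Srebf1: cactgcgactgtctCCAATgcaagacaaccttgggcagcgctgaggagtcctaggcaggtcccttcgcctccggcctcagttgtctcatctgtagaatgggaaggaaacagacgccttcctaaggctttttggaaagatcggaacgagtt
Acss2: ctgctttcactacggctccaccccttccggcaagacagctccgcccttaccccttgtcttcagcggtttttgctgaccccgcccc
Acly: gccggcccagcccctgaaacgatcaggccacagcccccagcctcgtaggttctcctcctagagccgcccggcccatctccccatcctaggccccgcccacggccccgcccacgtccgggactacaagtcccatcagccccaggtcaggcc
Elovl5: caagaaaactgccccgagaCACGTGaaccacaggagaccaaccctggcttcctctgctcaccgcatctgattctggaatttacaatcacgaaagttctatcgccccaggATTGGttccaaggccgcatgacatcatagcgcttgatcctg
Elovl6: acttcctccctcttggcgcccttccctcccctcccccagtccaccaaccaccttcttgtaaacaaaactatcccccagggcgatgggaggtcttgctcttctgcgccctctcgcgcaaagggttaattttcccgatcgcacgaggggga
The sterol response element is the site that SREBP factors are known to bind, and *Hmgcs1* was the one gene of the 26 whose window held these letters, at 137 bases before the start, against 1.44% of the 27025 genes with a window. The CCAAT box, bound by NF-Y, stood in the windows of 21 of the 26, including 13 of the 14 cholesterol genes, 4 of the 5 regulators and 4 of the 7 fatty acid genes, against 41.1% of all genes. *Acat2* was the cholesterol gene without one. The E-box stood in 6 of the 26, against 8.09%, and the GC box (GGGCGG) in 21 of the 26, against 38.2%. These are matches of letters in a fixed window, and binding was not measured.

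Among the 6 regulators, *Insig2* was the one gene of the 33 that passed in all 4 genotypes, in each as lower, against 3.85% of all genes. It encodes a membrane protein that retains SCAP and the SREBP factors in the endoplasmic reticulum. *Insig2* (ENSMUSG00000003721, chromosome 1 from 121304353 to 121332589) had between 47.7 and 61.7 CPM in the 14 EtOH libraries and between 30.3 and 40.5 CPM in the 14 with 4-HT, so the treatments did not overlap across the whole series. It fell by 0.62 on the log2 scale in AC (SE 0.12, edgeR adjusted p = 0.00158), by 0.64 in PAC (SE 0.09, adjusted p = 1.16e-05), by 0.57 in BAC (SE 0.09, adjusted p = 6.1e-06) and by 0.66 in BPAC (SE 0.09, adjusted p = 6.06e-07). Without the duplicate 1 cultures, *Insig2* in PAC was at -0.58 (SE 0.12, adjusted p = 0.0147). Its call held in 10 of the 17 alternatives tried for AC, 18 of 21 for PAC and all 21 each for BAC and BPAC. In AC it was lost with library size alone, where the change was also smaller (-0.40, adjusted p = 0.0182). It was also lost there when culture a1 (-0.65, adjusted p = 0.0656) or a2 (-0.58, adjusted p = 0.0714) was left out, on the donor sums (-0.64, adjusted p = 0.0108), with AC fitted alone (-0.63, adjusted p = 0.0298) and within duplicate 1 (-0.60, adjusted p = 0.021) or duplicate 2 (-0.65, adjusted p = 0.0872). In PAC the other losses were without donor b (-0.51, adjusted p = 0.0111) and within duplicate 2 (-0.58, adjusted p = 0.0302).

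Its paralog *Insig1*, which is itself an SREBP target, was lower with 4-HT in all 14 cultures but varied more. It had 175.5 and 153.4 CPM with EtOH in AC against 109.0 and 119.8 CPM with 4-HT, and in PAC 179.2, 134.5, 273.6 and 202.9 CPM against 104.0, 112.1, 103.3 and 113.7 CPM. In BAC it had 251.0, 293.8, 233.4 and 222.4 CPM against 146.5, 168.5, 149.4 and 189.4 CPM. In BPAC the levels were 226.3, 595.1, 156.9 and 206.7 CPM against 139.5, 229.9, 123.9 and 162.2 CPM, and the EtOH library of culture a2 was 2.88-fold above the median of the other 13 EtOH libraries. The log2 fold changes of -0.52, -0.87, -0.61 and -0.85 in AC, PAC, BAC and BPAC did not pass (adjusted p = 0.392, 0.0167, 0.0629 and 0.0109), and with the culture as a block *Insig1* passed as lower in PAC (-0.82, adjusted p = 0.000793), BAC (-0.61, adjusted p = 0.00407) and BPAC (-0.69, adjusted p = 0.00173). On the donor sums it passed in none of these (adjusted p = 0.0591, 0.145 and 0.0322). Without culture a2, the BPAC value was -0.47 (SE 0.18, adjusted p = 0.0304).

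*Stard4*, which encodes a carrier of cholesterol in the cytosol, fell in PAC (log2 fold change -0.56, SE 0.09, edgeR adjusted p = 8.23e-05) and BPAC (-0.33, SE 0.09, adjusted p = 0.00371), and with the block also in AC (-0.49, adjusted p = 0.00402). Without the duplicate 1 cultures it was at -0.38 in PAC (adjusted p = 0.0648). The calls of the transcription factor genes depended on the fit. *Srebf2*, whose product mainly drives the cholesterol route, was between -0.08 and 0.21 in the 4 genotypes and did not pass, but with library size alone it passed as higher in BAC (0.37, adjusted p = 4.7e-05) and BPAC (0.34, adjusted p = 0.00013), where the median of all genes stood at 0.13 and 0.18. *Srebf1*, whose product mainly drives fatty acid synthesis, was between 0.27 and 0.45, higher in 13 of 14 cultures, and did not pass without the block (adjusted p from 0.0201 to 0.106). It passed with the block in PAC (0.38, adjusted p = 0.00184) and BAC (0.39, adjusted p = 0.000964), and on the donor sums in PAC (0.39, adjusted p = 0.0058), BAC (0.42, adjusted p = 0.00189) and BPAC (0.31, adjusted p = 0.00936). With library size alone it also passed in PAC, BAC and BPAC, at 0.61, 0.54 and 0.48. *Scap* rose in BAC (0.37, SE 0.10, adjusted p = 0.00328), and in BPAC it passed when culture a2 was left out (0.43, SE 0.10, adjusted p = 0.000809, against 0.27 and 0.024 with it).

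Among the 10 fatty acid genes, none passed in AC, 2 fell in PAC, 3 rose in BAC, and 4 rose and 1 fell in BPAC. Of all genes, 12.2% fell in PAC, 20.3% rose in BAC, and 22.0% rose and 23.0% fell in BPAC, so that the counts in PAC and BAC lay near the shares of all genes. None of the 10 passed in PAC without the duplicate 1 cultures. The median log2 fold changes were 0.36, 0.10, 0.26 and 0.31 in AC, PAC, BAC and BPAC, beside 0.01, -0.03, -0.04 and -0.04 over all genes. With library size alone they were 0.58, 0.33, 0.43 and 0.53, beside 0.23, 0.20, 0.13 and 0.18, and 3 of the 10 rose in AC and in PAC (*Elovl5*, *Fads1* and *Fads2* in both), 4 in BAC and 5 in BPAC, while none fell in any genotype. Of all genes, 11.2%, 25.1%, 28.7% and 32.0% rose with this scaling in AC, PAC, BAC and BPAC, and 2.23%, 5.45%, 15.3% and 15.1% fell. Acetyl-CoA for the route is made from citrate by ATP citrate lyase, the product of *Acly*, and from acetate by the product of *Acss2*. *Acly* (ENSMUSG00000020917, chromosome 11 from 100476353 to 100528000) had 407.8, 326.6, 429.4 and 454.6 CPM with EtOH in BAC and 606.8, 579.8, 623.0 and 672.8 CPM with 4-HT, and in BPAC 399.0, 516.1, 309.9 and 289.9 CPM with EtOH and 735.0, 527.2, 590.3 and 631.6 CPM with 4-HT. The treatments were apart in both, and culture a2 of BPAC had the smallest difference of the 8 cultures. *Acly* rose in BAC (log2 fold change 0.62, SE 0.16, edgeR adjusted p = 0.00247) and BPAC (0.71, SE 0.16, adjusted p = 0.000615), but on the donor sums it did not pass (adjusted p = 0.0254 and 0.0125). In AC it had 289.8 and 295.3 CPM with EtOH and 392.8 and 445.3 CPM with 4-HT (0.52, SE 0.23, adjusted p = 0.122), and in PAC it was at 0.12 (SE 0.16).

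*Acss2* moved the other way, lower with 4-HT in all 14 cultures. In PAC it had 92.7, 73.9, 159.2 and 102.5 CPM with EtOH and 71.3, 54.6, 70.1 and 64.3 CPM with 4-HT, and it fell there (-0.72, SE 0.20, edgeR adjusted p = 0.00691). Without the duplicate 1 cultures it was at -0.57 (adjusted p = 0.176). In BAC and BPAC it was at -0.43 and -0.42, and it passed as lower with the block (adjusted p = 0.00141 and 0.00241) but not on the donor sums (adjusted p = 0.182 and 0.126).

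The carboxylase gene *Acaca* did not pass, with changes between 0.06 and 0.27. *Fasn*, whose product is the fatty acid synthase itself, had 409.3, 405.4, 493.1 and 497.1 CPM with EtOH in BAC and 627.0, 738.7, 696.9 and 813.7 CPM with 4-HT, and in BPAC 390.4, 666.0, 368.9 and 394.3 CPM with EtOH and 753.0, 577.6, 633.4 and 813.3 CPM with 4-HT. The treatments were apart in BAC and overlapped in BPAC through culture a2, where *Fasn* was lower with 4-HT. *Fasn* rose in BAC (0.67, SE 0.15, edgeR adjusted p = 0.000664) and BPAC (0.61, SE 0.15, adjusted p = 0.00148), and without culture a2 the BPAC change was 0.93 (SE 0.12, adjusted p = 1.55e-06). In AC and PAC it was at 0.38 (SE 0.22) and 0.25 (SE 0.15), and neither passed.

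Of the elongases, *Elovl5*, which acts on polyunsaturated chains, rose in BAC (0.44, SE 0.11, edgeR adjusted p = 0.00141) and BPAC (0.40, SE 0.11, adjusted p = 0.00285), and with the block also in AC (0.40, adjusted p = 0.00479), where it did not pass on the donor sums (adjusted p = 0.0887). *Elovl6*, which extends saturated and monounsaturated chains, fell in PAC (-0.52, SE 0.09, adjusted p = 0.000196) and BPAC (-0.32, SE 0.09, adjusted p = 0.00578). In PAC without the duplicate 1 cultures, *Elovl6* was at -0.29 (adjusted p = 0.147). Without BPAC culture a2 neither elongase passed in BPAC (*Elovl5* 0.35, adjusted p = 0.023, *Elovl6* -0.32, adjusted p = 0.0195). This was not particular to culture a2. Of the fits that left out a BPAC culture or donor, *Elovl6* lost its call in 5 and kept it in 1. *Elovl5* lost its call in 3 of them and kept it in 3.

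The desaturases also differed among themselves. *Fads1* had 64.1, 85.4, 66.7 and 52.8 CPM with EtOH in BPAC and 112.9, 107.3, 99.4 and 113.3 CPM with 4-HT, with no overlap, and rose there (0.69, SE 0.13, edgeR adjusted p = 9.54e-05), whereas in AC, PAC and BAC it was at 0.52, 0.34 and 0.38 and did not pass, and in PAC without the duplicate 1 cultures it was at 0.05. *Fads2*, also on chromosome 19, was between 0.14 and 0.55. In BPAC it was at 0.35 (SE 0.11, adjusted p = 0.0109) and passed on the donor sums (0.38, adjusted p = 0.0059), without culture a2 (0.51, SE 0.12, adjusted p = 0.00103) or without the duplicate 1 cultures of PAC, which share its estimate of the spread (0.35, adjusted p = 0.00898). *Scd1* and *Scd2* did not pass in any genotype, with changes between -0.34 and 0.27 and between -0.10 and 0.33. In the EtOH library of BPAC culture a2 they stood at 328.2 and 3383 CPM, 2.82-fold and 2.01-fold the medians of the other 13 EtOH libraries, and both were lower with 4-HT in that culture, by 0.43 and 0.27 log2 units.

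Over all 33 genes, 8 (24.2%) passed in both BAC and BPAC, each in the same direction, against 37.3% of all genes; the comparisons used separate libraries. Of these, *Acat2*, *Acly*, *Fasn* and *Elovl5* rose and *Hmgcs1*, *Ebp*, *Sc5d* and *Insig2* fell, 12.1% in each direction against 18.5% and 18.8% of all genes. On the donor sums *Acly*, *Hmgcs1* and *Ebp* no longer passed in BAC (adjusted p = 0.0254, 0.0215 and 0.0274). The number of the 33 that rose and fell was 0 and 1 in AC, 0 and 16 in PAC, 5 and 4 in BAC and 5 and 8 in BPAC. As shares of the 33, 3.03% fell in AC and 48.5% in PAC, against 4.25% and 12.2% of all genes. In BAC 15.2% rose and 12.1% fell, against 20.3% and 21.5%, and in BPAC 15.2% rose and 24.2% fell, against 22.0% and 23.0%. With library size alone in place of TMM these numbers were 3 and 0, 5 and 6, 8 and 2, and 10 and 2, and no gene that passed changed its direction. The shares of all genes with this scaling are those given above for the cholesterol and fatty acid genes. Without BPAC culture a2, 6 rose and 6 fell in BPAC. With the culture as a block the number that passed in AC was 5 (1 rose and 4 fell).

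A possible effect of the *Braf* allele on the 4-HT change was tested by subtracting the mean change of AC and PAC from that of BAC and BPAC. Of the 33 genes, *Acat2* and *Idi1* passed, both with a higher change with the allele, against 3.05% of all genes that were higher and 3.55% that were lower. Among the 33 differences, 4 were under 0, with a median of 0.18 beside -0.01 over all genes. In the same comparison, all 14 absorptive colonocyte markers had a difference under 0 (median -0.54, 3 passed, and 7 with the block) and all 12 proliferation markers a difference above 0 (median 0.39, 2 passed, and 5 with the block), and their part in the result was not tested. Of all 13519 genes, 880 were higher with the allele and 1011 lower in the fit with the block. The differences were 0.55 for *Acat2* (SE 0.11, edgeR adjusted p = 0.00198) and 0.49 for *Idi1* (SE 0.12, adjusted p = 0.00588). In single cultures, the change of *Acat2* was between 0.41 and 0.69 in the 8 cultures with the allele and between -0.22 and 0.18 in the 6 without, and that of *Idi1* between 0.04 and 0.30 and between -0.78 and -0.13. Together with *Mvd*, at -0.06 to 0.38 and -0.59 to -0.10, these were the 3 of the 33 genes (9.09%) whose cultures did not overlap, against 4.90% of all genes that were higher in every culture with the allele. With the block *Mvd* passed too (0.46, adjusted p = 0.00249), and its difference was 0.45 without the block (SE 0.18, adjusted p = 0.0914) and 0.50 on the donor sums (adjusted p = 0.0525), neither of which passed.

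The *Acat2* difference was 0.55 (SE 0.12, edgeR adjusted p = 0.00422) without the duplicate 1 cultures of PAC, 0.64 (adjusted p = 0.00315) within duplicate 1 alone and 0.46 (adjusted p = 0.167) within duplicate 2 alone. It lost the threshold when AC a1 (0.52, adjusted p = 0.0264), AC a2 (0.57, adjusted p = 0.0138), PAC donor b (0.49, adjusted p = 0.0106) or BAC donor a (0.52, adjusted p = 0.0136) was left out. The *Idi1* difference was 0.41 (adjusted p = 0.0298) without the duplicate 1 cultures of PAC, 0.53 (adjusted p = 0.0385) within duplicate 1 and 0.46 (adjusted p = 0.228) within duplicate 2, and it passed in 16 of the 34 alternatives against 29 of 34 for *Acat2*. On the donor sums *Acat2* passed (0.60, adjusted p = 0.00689) and *Idi1* did not (0.53, adjusted p = 0.0396). *Idi1* shares 25.3% of its 50-base stretches with other annotated genes, mainly *Gm13502*. The other 31 genes had differences between -0.15 and 0.47 and did not pass, and without BPAC culture a2 *Fasn* passed too (0.49, SE 0.12, adjusted p = 0.00867). For *Sc5d* and *Insig2* the difference was 0.02 each (SE 0.14 and 0.10).

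For the *Trp53* allele, where the mean change of AC and BAC was subtracted from that of PAC and BPAC, none of the 33 genes passed with edgeR, limma-voom or DESeq2, against 0.0148% of all genes that passed. None had an unadjusted p under 0.05, against 1.04% of all genes. The differences lay between -0.40 and 0.07, with a median of -0.11 beside -0.01 over all genes, and 31 of the 33 were under 0. Without the duplicate 1 cultures of PAC they lay between -0.28 and 0.04, with 27 under 0, and none passed. The levels with EtOH, before recombination, were compared in the same way for the *Braf* allele. None of the 33 passed with edgeR, limma-voom or DESeq2, against 0.0296% of all genes, and 9 of the 33 had an unadjusted p under 0.05, against 17.2% of all genes. Of the 33 differences, 3 were under 0, with a median of 0.14 beside 0.02 over all genes. They lay between -0.05 and 0.59, with the highest for *Insig1* (0.59, SE 0.22, adjusted p = 0.183). This value was 0.30 (SE 0.13) without BPAC culture a2, 0.10 (SE 0.15) within duplicate 1 and 1.00 (SE 0.32) within duplicate 2. The EtOH level of *Idi1* was 0.26 higher with the allele (SE 0.08, adjusted p = 0.138).

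Other genes of the same pathways were listed to set the members beside them, and their counts are to be read against the shares of all genes that rose and fell, for AC 3.00% and 4.25%, for PAC 11.2% and 12.2%, for BAC 20.3% and 21.5%, for BPAC 22.0% and 23.0%. No gene of these lists or of the marker lists passed in PAC without the duplicate 1 cultures. With the culture as a block these shares were 7.45% and 8.99% (AC), 16.5% and 18.4% (PAC), 25.3% and 26.7% (BAC), and 26.7% and 27.7% (BPAC). Of 10 further sterol and isoprenoid genes, 1 fell in AC, 6 in PAC and 2 each in BAC and BPAC, and none rose in AC or PAC, 2 in BAC and 1 in BPAC. *Cyp51*, the lanosterol demethylase gene, fell in PAC (log2 fold change -0.63, SE 0.12, and -0.34 with an adjusted p of 0.152 without the duplicate 1 cultures), *Pdss2*, which takes part in making the tail of coenzyme Q, fell in BPAC by 0.68 (SE 0.11), and *Coq2*, which attaches that tail, rose there by 0.40 (SE 0.08). Of 11 genes that act on SREBP transport, cleavage or turnover, 2 fell in AC and 5 in each of PAC, BAC and BPAC, and 2 rose in BAC and none in the other genotypes. With the block, 2 of the 10 sterol and isoprenoid genes fell in AC, and 7 fell and 1 rose in PAC. In BAC 4 of them fell and 2 rose, and in BPAC 3 fell and 1 rose. Of the 11 SREBP genes, 3 fell in AC and 5 in each other genotype, while 3 rose in BAC and 2 in BPAC. *Erlin1*, whose product is a membrane protein of the endoplasmic reticulum, fell in all 4 genotypes, from -0.92 (SE 0.17) in AC to -1.08 (SE 0.12) in BAC, although without the duplicate 1 cultures it was at -0.70 in PAC (adjusted p = 0.0131), and *Sec23a*, a coat protein of transport vesicles, fell by 1.04 in BPAC (SE 0.21).

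Of 19 genes of sterol uptake, efflux and storage, 3 rose and 7 fell in BPAC, 4 and 6 in BAC, 3 and 5 in PAC, and 2 and 1 in AC. The changes in BPAC that were furthest from 0 were those of *Abcg8* (log2 fold change -3.80, SE 0.56) and *Abcg5* (-3.57, SE 0.66), which together form a sterol exporter of the apical membrane, and of *Npc1l1* (-3.52, SE 0.50), the sterol importer of that membrane. *Abcg8* was at -0.19 (SE 0.67) in AC and 0.14 (SE 0.47) in PAC. Of 15 further fatty acid genes counted, of 21 listed, 1 rose and 5 fell in BPAC, 1 and 4 in BAC, none and 5 in PAC, and none passed in AC. *Acacb*, the mitochondrial counterpart of *Acaca* and a brake on fatty acid oxidation, fell by 1.45 in BPAC (SE 0.21), and *Mlxipl*, a glucose-responsive transcription factor of lipid synthesis, by 1.43 (SE 0.21). Of 14 glycerolipid genes, 10 fell and 1 rose in BPAC, 7 and 1 in BAC, 6 and none in PAC, and 4 and none in AC, among them *Dgat1* (-1.39 in BPAC, SE 0.10) and *Dgat2* (-1.15, SE 0.15), whose enzymes make triglycerides. With the block, 6 of the 19 uptake, efflux and storage genes rose and 2 fell in AC, and 5 rose and 9 fell in BPAC. With the block 2 of the 15 fatty acid genes fell in AC, and of the 14 glycerolipid genes 9 fell in PAC and 9 fell and 3 rose in BAC.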

How the data were processed

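The authors deposited raw counts of reads per gene, whole numbers without normalization, for 28 libraries of colon organoids and 13519 genes. Per the submitters' processing notes, reads were trimmed with Trimmomatic 0.39 and aligned with STAR 2.5.2b to GRCm38. The counting program, its annotation and its strandedness are not given in the sources used here. The lowest row sum was 116, and every gene passed the row-sum minimum of 2 that the study used.

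Samples were grouped by genotype and treatment from the labels, and the libraries of a culture were matched by donor and duplicate number. One BAC library with no number in its label was taken as the first duplicate. The members and lists were chosen with earlier results of these data known. All 33 members are named, and of each other list at most the 3 genes with the largest change in BPAC.

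Counts were tested with edgeR 4.0.16 in R 4.3.3 (quasi-likelihood, TMM, 8 groups, no block, Benjamini-Hochberg over all genes, adjusted p under 0.01). The common biological coefficient of variation was 0.191. Changes per culture are differences of log2 CPM with a prior count of 2. Alternatives were limma-voom (limma 3.58.1), DESeq2 1.42.0, other size factors, filters, thresholds and prior counts, thinning, each genotype, duplicate or culture apart, sums per donor, and the culture as a replicate block. The EtOH and 4-HT libraries of a culture are labelled with the same donor, which was not tested for PAC cultures a1 and b1. The libraries of a culture deviated together from their group means (mean r = 0.416 over 12 cultures, lowest 0.245), so the block pairs the samples. The test was tested on simulated data for BPAC with 13519 genes, where it recovered 76% of 100 genes changed by 2-fold and 12% of 100 changed by 1.5-fold, with 0 false calls. No other genes were changed there, all genes had the same spread, and each library was drawn independently. Recovery where many genes change, and false calls from duplicates that share a donor, were therefore not tested. Stretches of 50 bases shared between annotated genes were counted in GENCODE transcripts of GRCm38. Promoter windows are from RefSeq GRCm38.p6. Figures were drawn with matplotlib 3.10.9. The reads carry no molecular identifiers.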

Additional observations from a re-analysis of the deposited data

Results flagged for a closer look

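Of 105 sets of 4 cultures checked (the per-culture changes of the 33 genes and of the cholesterol and fatty acid medians in PAC, BAC and BPAC), 2 held a culture whose gap to the nearest other, relative to the whole range, was above Dixon's critical value, and chance alone marks about 1 set in 20. *Scap* had a change of -0.20 in BPAC culture a2, against 0.40 to 0.49 in the other 3 BPAC cultures. *Acly* had a change of 0.83 in BAC culture a2, against 0.54 to 0.57 in the other 3.

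By the edgeR test of the difference itself, the change with 4-HT differed with the *Braf* allele for *Acat2* (0.55, higher with the allele in all 8 cultures than in any of the 6 without) and for *Idi1* (0.49, likewise).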

How the results depend on the processing

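The numbers below count the 33 genes past the threshold. The number of all genes that passed also moved with the setting, so these counts alone do not set the 33 apart from other genes. In AC, 406 of all genes rose and 574 fell in the main fit, and 1511 rose and 302 fell with library size alone. In AC the count of 1 became 7 at an adjusted p of 0.05, 4 with DESeq2, 3 with library size alone, 2 with at least 10 CPM in 4 samples, 6 with the duplicate number as a covariate, 3 in duplicate 1 alone, 0 in duplicate 2 alone, 2 without both duplicate 1 cultures of PAC and 0 with AC fitted alone. In PAC the count of 16 became 0 in duplicate 2 alone, 0 without both duplicate 1 cultures and 8 with PAC fitted alone. In BAC the count of 9 became 16 at an adjusted p of 0.05 and 1 in duplicate 2 alone. In BPAC the count of 13 became 2 in duplicate 2 alone and 5 with BPAC fitted alone. For the *Braf* allele the count of 2 became 1 with library size alone, 1 with the duplicates of a donor summed, 1 without both duplicate 1 cultures of PAC and 0 in duplicate 2 alone.

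With the culture as a replicate block the counts were 5 in AC, 20 in PAC, 12 in BAC, 18 in BPAC, 3 for the *Braf* allele and 0 for the *Trp53* allele, and the block changed no call of the 33 genes beyond those given above. For the *Braf* allele, 880 of all 13519 genes were higher and 1011 lower in this fit. The EtOH levels could not be fitted with the block, since culture and genotype coincide.

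With a culture or donor left out, the counts ranged from 0 to 0 in AC, 0 to 15 in PAC, 2 to 8 in BAC, 6 to 12 in BPAC and 0 to 3 for the *Braf* allele, and were 0 for the *Trp53* allele and the EtOH levels. In BAC, leaving out a1 or a2 gave 5 each, donor a 2 and donor b 3. In BPAC, leaving out a1 gave 6, b2 8, donor a 7 and donor b 6. With single cultures left out, the cholesterol medians ranged from -0.36 to -0.20 in AC, -0.56 to -0.36 in PAC, -0.14 to -0.12 in BAC and -0.25 to -0.19 in BPAC, and the fatty acid medians from 0.28 to 0.43, -0.01 to 0.04, 0.24 to 0.33 and 0.20 to 0.43.

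With library size alone, the means over cultures of the cholesterol medians, which are not the medians of fitted fold changes given above, were -0.06 in AC, 0.04 in BAC and 0.00 in BPAC and those of the fatty acid medians 0.58 in AC, 0.25 in PAC and 0.44 in BAC. The mean over the fatty acid genes in place of the median gave 0.24 in AC. The cause of these differences was not tested, except that a duplicate alone or a genotype alone has fewer samples. No gene that passed changed sign under any alternative run. What depth and sample number allow was simulated for BPAC alone.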
